A study of Mus musculus with 6 samples.

Results

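Immediate early genes and inducible heat shock genes were followed in all 6 libraries of a mouse lung RNA-Seq experiment. The set was the 10 genes Fos, Fosb, Jun, Junb, Egr1, Atf3, Ier2, Dusp1, Hspa1a and Hspa1b, taken by their names in the count table, which held 49315 genes. Each of the 10 was found once and had enough reads to enter every comparison. The lungs came from C57BL/6 mice (male C57BL/6J in the methods of the study) that had received either sterile saline (sham) or Bleomycin sulfate (BLM), a DNA-damaging drug used to bring on lung fibrosis, by oropharyngeal instillation. From each treatment, RNA was sequenced from unsorted lung cells, from cells without Lamp1 on their surface (Lamp1-depleted) and from cells with Lamp1 on their surface (Lamp1-enriched). The labels name no transgene or deleted allele in any group and give no age, and the lungs were taken some weeks after instillation. There was 1 library per condition, and lungs of several mice of the same group were pooled in the tube for dissociation, so the spread between mice is not measured. Lungs were minced and digested with warm collagenase in all 6 cases, and 4 of the 6 libraries then came from a cell sorter. Undissociated lung is not analysed here. What digestion adds to a level, which all 6 libraries share, cannot be told apart from the level in the intact lung.

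Immediate early genes are switched on within minutes of a stimulus, without new protein being made first, because the transcription factors that drive them are already in the cell. Growth factors, mechanical strain, enzymatic digestion and warming all act as such stimuli, and the kinases of the MAP kinase pathways carry the signal to serum response factor and CREB. Inducible Hsp70 genes answer to the factor Hsf1 when proteins unfold. Both groups are well known from dissociated tissue, where a preparation at body temperature can raise them in cells that do not use them in place.

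Promoter sequences of 6 members are given here because the results turn on 3 pairs: Fos with Fosb and Hspa1a with Hspa1b, whose levels moved in parallel, and Jun with Junb, whose levels moved apart. RefSeq windows on build GRCm38.p6 were matched by symbol for 8 of the 10 members, and Egr1 and Ier2 had none. Each sequence is the 250 bases before the start of the gene, 5′ to 3′ on the strand of the gene. Capitals mark matches on either strand to the letters of 4 motifs: the half-site of the cyclic AMP response element (TGACG), an EGR site (GCGGGGGCG or GCGTGGGCG), a heat shock element (GAANNTTC or TTCNNGAA) and a TATA box (TATAAA).
Fos, chr12:85473640-85473889, plus strand: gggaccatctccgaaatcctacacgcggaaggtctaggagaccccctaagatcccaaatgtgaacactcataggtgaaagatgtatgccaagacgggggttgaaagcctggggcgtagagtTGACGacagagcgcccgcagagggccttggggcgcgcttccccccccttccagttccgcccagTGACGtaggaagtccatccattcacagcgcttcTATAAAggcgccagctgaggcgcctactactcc
Fosb, chr7:19310046-19310295, minus strand: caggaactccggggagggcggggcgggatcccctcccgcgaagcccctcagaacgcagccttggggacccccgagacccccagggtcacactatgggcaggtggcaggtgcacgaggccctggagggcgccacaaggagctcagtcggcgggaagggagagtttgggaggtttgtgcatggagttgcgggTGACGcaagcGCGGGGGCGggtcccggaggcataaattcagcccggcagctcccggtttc
Jun, chr4:95052223-95052472, minus strand: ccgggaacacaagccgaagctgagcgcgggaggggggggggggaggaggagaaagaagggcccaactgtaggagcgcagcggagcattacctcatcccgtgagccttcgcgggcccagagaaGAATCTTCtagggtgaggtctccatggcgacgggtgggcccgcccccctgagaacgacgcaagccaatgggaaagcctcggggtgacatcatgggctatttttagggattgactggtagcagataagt
Junb, chr8:84978749-84978998, minus strand: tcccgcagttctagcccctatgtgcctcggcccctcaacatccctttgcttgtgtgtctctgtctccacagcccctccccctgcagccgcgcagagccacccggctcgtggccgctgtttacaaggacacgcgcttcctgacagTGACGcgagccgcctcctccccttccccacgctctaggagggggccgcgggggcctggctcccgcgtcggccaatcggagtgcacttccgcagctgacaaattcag
Hspa1a, chr17:34972157-34972406, minus strand: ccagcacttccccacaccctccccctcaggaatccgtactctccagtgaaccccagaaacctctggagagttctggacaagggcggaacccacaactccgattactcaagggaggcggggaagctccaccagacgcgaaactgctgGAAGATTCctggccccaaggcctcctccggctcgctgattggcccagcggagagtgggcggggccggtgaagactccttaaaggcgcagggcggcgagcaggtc
Hspa1b, chr17:34959239-34959488, minus strand: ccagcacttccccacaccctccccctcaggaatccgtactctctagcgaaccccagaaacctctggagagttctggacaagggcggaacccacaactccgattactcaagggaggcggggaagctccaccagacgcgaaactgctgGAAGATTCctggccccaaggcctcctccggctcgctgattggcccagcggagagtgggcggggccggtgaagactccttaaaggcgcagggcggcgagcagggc

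The half-site of the cyclic AMP response element, to which CREB and its relatives bind, was found in 5 of the 8 member windows (Fos, Fosb, Junb, Atf3 and Dusp1), against 17.8% of 32851 gene windows of the same length. Only the Dusp1 window held the full element TGACGTCA, which contains the half-site on both strands and occurred in 1.55% of all windows. A heat shock element was found in 3 of the 8 (Hspa1a, Hspa1b and Jun), against 12.8% of all windows. The letters GAAGATTC stood from base -104 to base -97 before the start in both Hspa1a and Hspa1b. A TATA box was found in the Fos window and an EGR site in the Fosb window, against 12.4% and 3.06% of all windows. The CArG box, the core of the serum response element, and the AP-1 site TGAGTCA were in none of the 8 windows, against 1.47% and 4.46% of all windows. These are matches of letters in a short window and do not show that a factor was bound. Sites outside the 250 bases were not searched, and Egr1 and Ier2 were not searched at all. The lack of a match therefore does not show that a gene lacks the element. The Hspa1a and Hspa1b windows were identical at 247 of 250 positions (98.8%), with the differences C44T, T47C and T249G, counted from 1 at the 5′ end, the Hspa1a base first.

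Sequencing depth and the make-up of the libraries set the frame for the levels. Counted reads per library ranged from 30236120 to 52918696. The BLM Lamp1-depleted library stood apart: the noncoding gene Gm26917 held 38.4% of its reads, against 0.884% to 7.10% in the other 5, and its TMM factor was 0.699 against 0.993 to 1.19. Values below are CPM (read counts scaled to a common TMM-adjusted library size), and the intervals of ratios are Clopper-Pearson intervals at 95% that cover counting error only. Lamp1 mRNA itself was at 491 CPM in Lamp1-enriched, 319 CPM in unsorted and 146 CPM in Lamp1-depleted cells of sham mice. In BLM mice it was at 378, 501 and 111 CPM in the same order, so there the unsorted library was above the enriched one. The lung marker Sftpc, made by alveolar type 2 cells (22.9 to 779 CPM), and the general endothelial marker Pecam1 (340 to 2009 CPM) were present in all 6 libraries.

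Together the 10 genes made up between 0.190% and 0.374% of all counted reads. Their summed level was 2995 CPM in unsorted, 1647 CPM in Lamp1-depleted and 2934 CPM in Lamp1-enriched cells of sham mice, and 3772, 2785 and 2561 CPM in those of BLM mice. The sham Lamp1-depleted library was thus the lowest of the 6 and the BLM unsorted library the highest. Per kilobase of exon, every member other than Hspa1a, Hspa1b and Fosb was above the 90th percentile of the genes with at least 10 reads in each library. At the low end, Hspa1a was at an RPKM (CPM per kilobase of exon) of 6.20 in sham Lamp1-depleted cells, the 68.4th percentile there, and at the high end Fos was at 461 in BLM unsorted cells, where its rank was 42 among 20479 genes.

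**Figure D1:**
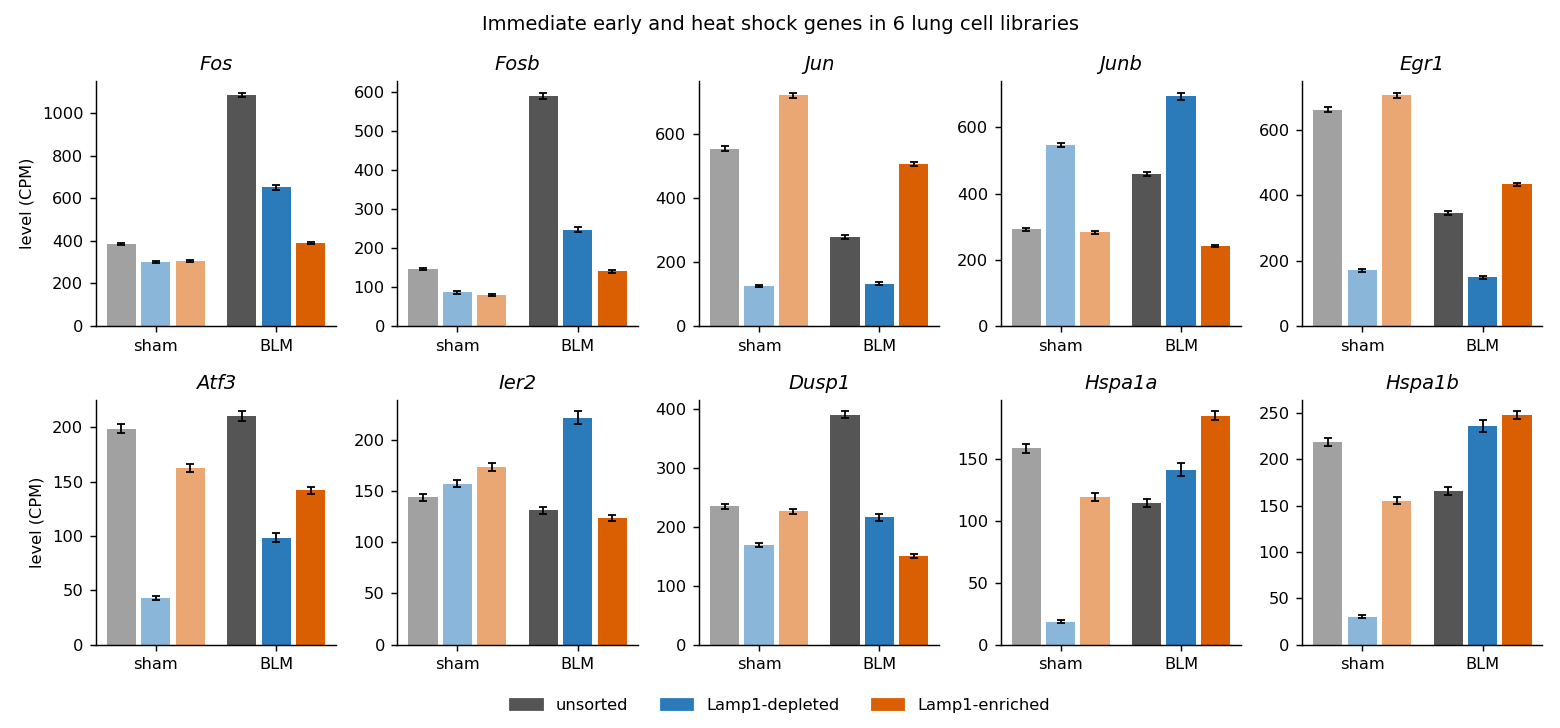
Level of each member (CPM on TMM-scaled totals, linear axis from 0) in the 6 libraries, sham in pale and BLM in full colour, with grey for unsorted, blue for Lamp1-depleted and orange for Lamp1-enriched cells. Bars are 1 library each and whiskers are exact Poisson 95% intervals. Fos and Fosb were highest in BLM unsorted cells, Jun and Egr1 were lowest in both Lamp1-depleted libraries, and Hspa1a and Hspa1b were lowest in sham Lamp1-depleted cells.

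Fos and Fosb encode partners of the Jun proteins in the dimeric transcription factor AP-1. Fos was at 385 CPM in sham unsorted, 300 CPM in sham Lamp1-depleted and 306 CPM in sham Lamp1-enriched cells, and at 1085, 651 and 389 CPM in the BLM libraries in the same order. Fosb was at 147, 86.1 and 80.5 CPM in the sham libraries and at 591, 247 and 140 CPM in the BLM libraries. For both genes the unsorted library was above both sorted fractions of its treatment, and the BLM unsorted library was the highest of the 6. The counting intervals of the sham Lamp1-depleted and sham Lamp1-enriched libraries overlapped for Fos, as did those of sham unsorted and BLM Lamp1-enriched cells for both genes, so those neighbours in the order did not differ beyond counting error. Across the 6 libraries the log2 levels of Fos and Fosb had a Pearson r of 0.99, given as a description because the 2 genes share libraries and scaling. The ratio of Fosb to Fos reads, which no scaling of libraries can alter, was nevertheless not constant. It was 0.545 in BLM unsorted cells (interval 0.536 to 0.554), 0.36 to 0.38 in sham unsorted and both sorted BLM libraries, and 0.286 and 0.264 in the sorted sham libraries.

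Jun and Junb, which compete for the same partners in AP-1, went in opposite directions between the sorted fractions. Jun was at 556 CPM in sham unsorted, 126 CPM in sham Lamp1-depleted and 723 CPM in sham Lamp1-enriched cells, and at 279, 132 and 508 CPM in the BLM libraries. Junb was at 292, 547 and 283 CPM in the sham libraries and at 459, 693 and 242 CPM in the BLM libraries. Jun was thus lowest, and Junb highest, in the Lamp1-depleted cells of each treatment. There were 2.56 Jun reads per Junb read in sham Lamp1-enriched cells and 2.10 in BLM Lamp1-enriched cells, but only 0.230 and 0.191 in the Lamp1-depleted cells. The unsorted libraries lay between their fractions at 1.90 in sham and 0.607 in BLM cells. The Pearson r of their log2 levels over the 6 libraries was -0.937, a description over libraries that share their scaling. The exons of Jun overlap the antisense gene Junos and those of Junb overlap Prdx2 on the opposite strand. The strand setting of the counting is not given in the sources used here, so reads of such pairs cannot be told apart.

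**Figure D2:**
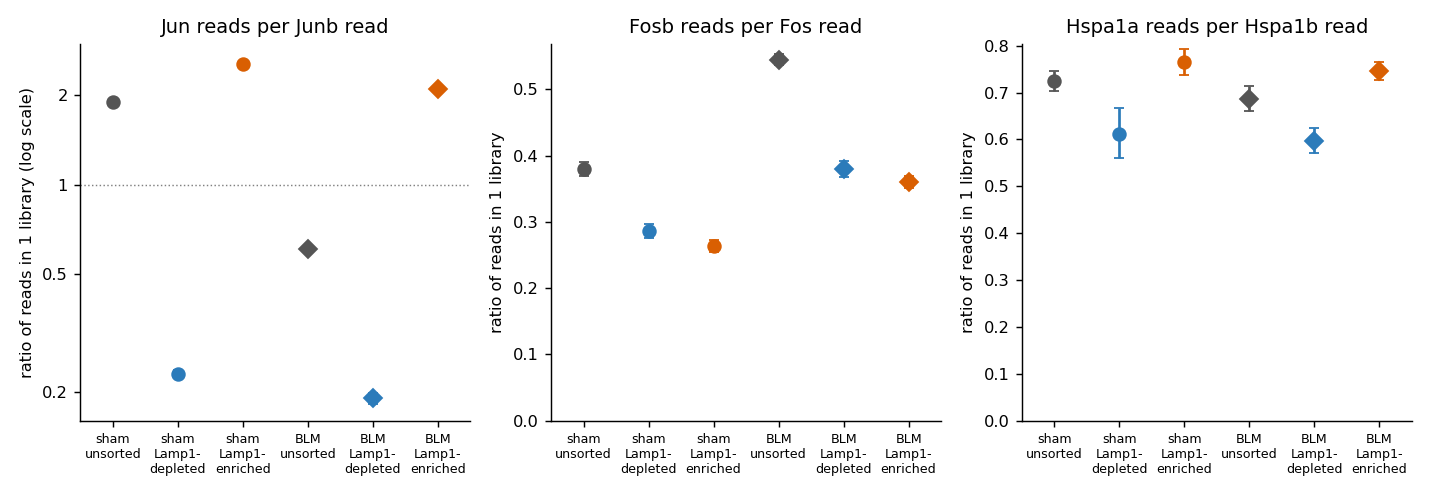
Reads of 1 member per read of another in the same library: Jun per Junb (log axis, dotted line at 1), Fosb per Fos and Hspa1a per Hspa1b (linear axes from 0). Circles are sham and diamonds BLM libraries, colours mark the fraction as in the plot of levels, and whiskers are Clopper-Pearson 95% intervals. Jun per Junb was above 2 in both Lamp1-enriched libraries and at most 0.230 in both Lamp1-depleted ones.

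Egr1 encodes a zinc finger factor that couples growth signals to new transcription. It was at 661 CPM in sham unsorted, 170 CPM in sham Lamp1-depleted and 706 CPM in sham Lamp1-enriched cells, and at 346, 149 and 433 CPM in the BLM libraries. As for Jun, both Lamp1-depleted libraries were the lowest and each Lamp1-enriched library was above the unsorted one of its treatment (in sham not with total counts, or totals outside Gm26917 and Gm42418, as the scale, where the log2 ratio of Egr1 was -0.13 and -0.14 against 0.095 here), and r between Egr1 and Jun over the 6 libraries was 0.98. Atf3, a stress-induced factor that represses many of its targets, was at 199, 42.9 and 163 CPM in the sham libraries and at 210, 98.3 and 142 CPM in the BLM libraries. Here the unsorted library was the highest and the Lamp1-depleted library the lowest in each treatment. Ier2, a short nuclear protein of the early response, was at 144, 157 and 173 CPM in the sham libraries and at 131, 221 and 123 CPM in the BLM libraries. It varied least of the 10, by 1.79-fold from the lowest to the highest library.

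Dusp1 encodes a phosphatase that switches MAP kinases off and so ends the signal that induced it. Its level was 235 CPM in sham unsorted, 169 CPM in sham Lamp1-depleted and 226 CPM in sham Lamp1-enriched cells, and 390, 216 and 150 CPM in the BLM libraries. The unsorted library was the highest in each treatment, by 1.04-fold over the nearer fraction in sham and by 1.81-fold in BLM. In its exons Dusp1 overlaps Ergic1 on the opposite strand.

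Hspa1a and Hspa1b encode the inducible Hsp70 chaperone and differed more between libraries than any other member. Hspa1a was at 158 CPM in sham unsorted, 18.4 CPM in sham Lamp1-depleted and 119 CPM in sham Lamp1-enriched cells, and at 114, 141 and 185 CPM in the BLM libraries. Hspa1b was at 219, 30.1 and 155 CPM in the sham libraries and at 166, 236 and 248 CPM in the BLM libraries. From the lowest library, sham Lamp1-depleted, to the highest, BLM Lamp1-enriched, this was a 10.04-fold range for Hspa1a and an 8.24-fold range for Hspa1b. The other 5 libraries lay within 114 to 185 CPM and within 155 to 248 CPM. The transcripts of the 2 genes are nearly alike: 38.1% of the 150-base stretches of Hspa1a and 40.5% of those of Hspa1b are found in the other, and how reads that fit both were counted is not given in the sources used here. The split between the 2 genes is therefore uncertain. Hspa1a reads per Hspa1b read stayed between 0.597 and 0.765. Exons of Hspa1a also overlap Gm20481 on the opposite strand.

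The comparison of sorted with unsorted cells asks whether passage through the sorter goes with a higher stress response. Each sorted fraction also holds a chosen part of the cells, so handling and choice of cells cannot be told apart. None of the 10 was at least 2-fold higher in a sorted fraction than in the unsorted cells of its treatment, in any of 4 ratios. In sham Lamp1-depleted over sham unsorted cells the median log2 ratio of the members was -1.36, against -0.03 for all genes, and 5 of 10 were at least 2-fold lower (Jun, Egr1, Atf3, Hspa1a and Hspa1b). Of 22925 genes that reached 10 reads in either library, 30.4% were that much lower and 18.3% that much higher. In sham Lamp1-enriched over sham unsorted cells the median was -0.17, against -0.03 for all genes. No member passed 2-fold in either direction there, against 2.63% of genes higher and 15.9% lower. In BLM Lamp1-depleted over BLM unsorted cells the median was -0.80, against -0.34 for all genes. There 4 members were lower (Fosb, Jun, Egr1 and Atf3), against 33.6% of genes lower and 16.8% higher. In BLM Lamp1-enriched over BLM unsorted cells the median was -0.33, against 0.04 for all genes. There 3 members were lower (Fos, Fosb and Dusp1), against 19.1% of genes lower and 12.6% higher. Ratios within a treatment share the unsorted library. Single values ran from -3.11 (interval -3.21 to -3.00) for Hspa1a in sham Lamp1-depleted cells to 0.91 (0.88 to 0.94) for Junb in the same ratio. For BLM Lamp1-depleted cells the count of 4 rested on the scaling: with DESeq2 size factors or with totals outside Gm26917 and Gm42418, 2 members passed. With total counts as the scale the ratios there were lower (Hspa1a at -0.20 in place of 0.31), and Fos and Dusp1 passed in addition to the 4.

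**Figure D3:**
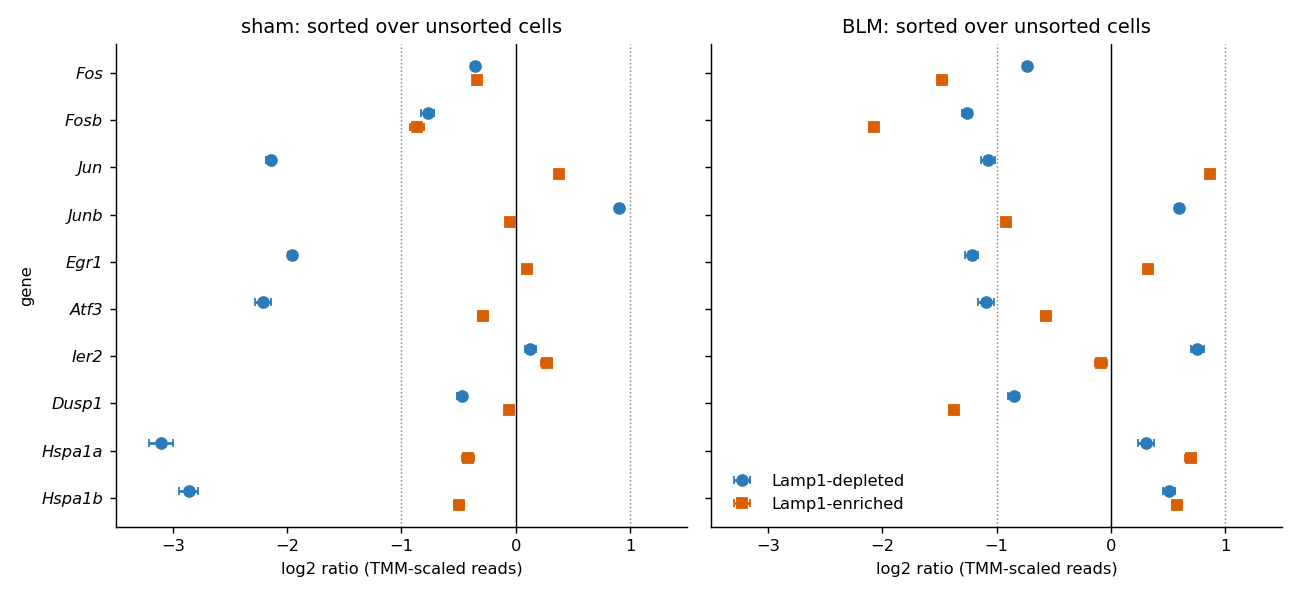
Log2 ratio of each sorted fraction over the unsorted library of the same treatment for the 10 members, sham on the left and BLM on the right (x axis, TMM-scaled reads). Blue circles are Lamp1-depleted and orange squares Lamp1-enriched cells, whiskers are Clopper-Pearson 95% intervals, and dotted lines mark 2-fold. No point lies at or above a log2 ratio of 1, and Hspa1a and Hspa1b lie below 0 in both sham fractions and above 0 in both BLM fractions, except that Hspa1a in BLM Lamp1-depleted cells was at -0.20 with total counts as the scale.

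The level in an unsorted suspension can also be set against the levels of both of its fractions. This way of reading the levels was chosen after the values were seen. The unsorted cells cannot be taken as a mix of the 2 fractions. In BLM mice 9 of 10 alveolar macrophage markers were at least 2-fold above both in unsorted cells, against 8.4% of genes. That held for 6 of the 10 in sham mice, against 7.23% of genes. In sham mice 9 of 9 fibroblast markers were above both by any amount, and 3 of 9 by at least 2-fold. In BLM mice only 3 of 9 fibroblast markers were above both by any amount, and 0 by at least 2-fold. Of 12 endothelial markers 0 were above both in either treatment. In sham mice the unsorted library was above both fractions for 6 of 10 members (Fos, Fosb, Atf3, Dusp1, Hspa1a and Hspa1b), against 25.7% of 23233 genes, and below both for Ier2 alone, against 22.1%. In BLM mice it was above both for 4 members (Fos, Fosb, Atf3 and Dusp1), against 26.4% of 22801 genes, and below both for Hspa1a and Hspa1b, against 18% of genes, although with total counts as the scale Hspa1b alone was below both. On that scale Egr1 joined the 6 members above both in sham mice, against 34% of all genes. Fos, Fosb, Atf3 and Dusp1 were above in both treatments. The amounts were mostly small: in sham cells unsorted Dusp1 was 1.04-fold, Fos 1.26-fold and Fosb 1.70-fold above the nearer fraction, and in BLM cells Fos was 1.67-fold and Fosb 2.40-fold above it. Reference genes did not stay level in this view, since 12 of 15 lay below both fractions in sham unsorted cells (10 with total counts as the scale) and 7 of 15 above both in BLM unsorted cells.

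Over all 6 libraries, the mean of the sorted fractions was compared with unsorted cells in an edgeR quasi-likelihood fit with fraction and treatment as terms, in which the spread is how far the effect of a fraction differs between treatments (2 residual degrees of freedom, 21906 genes). Fosb fell, with a log2 fold change of -1.22 ± 0.30 (SE) and an adjusted p of 0.0474. It was the only member that passed, against 3.45% of genes lower and 0.288% higher. Its sorted libraries spanned 80.5 to 247 CPM and its unsorted libraries 147 to 591 CPM, so the groups overlapped. At an unadjusted p under 0.05 there were 4 members, all lower, against 16.1% of genes lower and 3.56% higher. The median over the members was -0.64, against -0.08 over all genes. Atf3 had a log2 fold change of -0.97 ± 0.31 and an adjusted p of 0.114, with 42.9 to 163 CPM in sorted and 199 to 210 CPM in unsorted cells. Dusp1 had -0.66 ± 0.31 and an adjusted p of 0.273, with 150.1 to 226 CPM and 235 to 390 CPM. For these 2 members every sorted library was below both unsorted ones, as for 5.64% of genes. Junb and Ier2 were the members with values above 0, at 0.16 ± 0.30 and 0.32 ± 0.29. The Fosb call was lost without the BLM unsorted library (edgeR adjusted p = 0.480), without the BLM Lamp1-enriched library (adjusted p = 0.228) and when the treatment term was dropped (adjusted p = 0.441). Hspa1a and Hspa1b were called lower in sorted cells without the BLM unsorted library (edgeR adjusted p = 0.0176 and 0.0308) or the BLM Lamp1-depleted library (0.0261 and 0.0291), and Atf3 without the latter (0.0170).

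Between the fractions, both of which went through the sorter, the members differed more. In the same edgeR fit Jun was higher in Lamp1-enriched than in Lamp1-depleted cells by 2.11 ± 0.37 on the log2 scale (adjusted p = 0.00112), Egr1 by 1.69 ± 0.35 (adjusted p = 0.00285) and Atf3 by 1.10 ± 0.38 (adjusted p = 0.0429). Junb was lower, at -1.30 ± 0.35 (adjusted p = 0.0127). Such calls were common, since 20.3% of genes were higher and 18% lower. The fractions did not overlap for these 4 genes, as was the case, with 2 libraries in each, for 36.7% of genes in the higher and 30.7% in the lower direction. The Jun and Egr1 calls were made under every alternative fit and without each of the 6 libraries in turn. The Atf3 call was lost in edgeR without the sham Lamp1-depleted library (adjusted p = 0.241), without the sham Lamp1-enriched library (adjusted p = 0.400) or with counts thinned to the smallest library (adjusted p = 0.0534), and the Junb call without the BLM Lamp1-enriched library (adjusted p = 0.347) or with total counts as the scale (adjusted p = 0.154). Hspa1a had a log2 fold change of 1.13 ± 0.63 and Hspa1b of 0.82 ± 0.63, and their fractions overlapped. Both were called higher without the BLM Lamp1-depleted library (edgeR adjusted p = 0.000958 and 0.00157), without sham unsorted (0.000707 and 0.0126) and without BLM unsorted cells (0.000747 and 0.0130), with all genes of at least 1 read (0.00387 and 0.0489), and Hspa1a also with total counts as the scale (0.0219). Without the sham Lamp1-depleted library they stood at 0.031 (adjusted p = 0.957) and -0.28 (adjusted p = 0.571), and over the 6 left-out libraries the log2 fold change of Hspa1a ranged from 0.031 to 2.91.

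**Figure D4:**
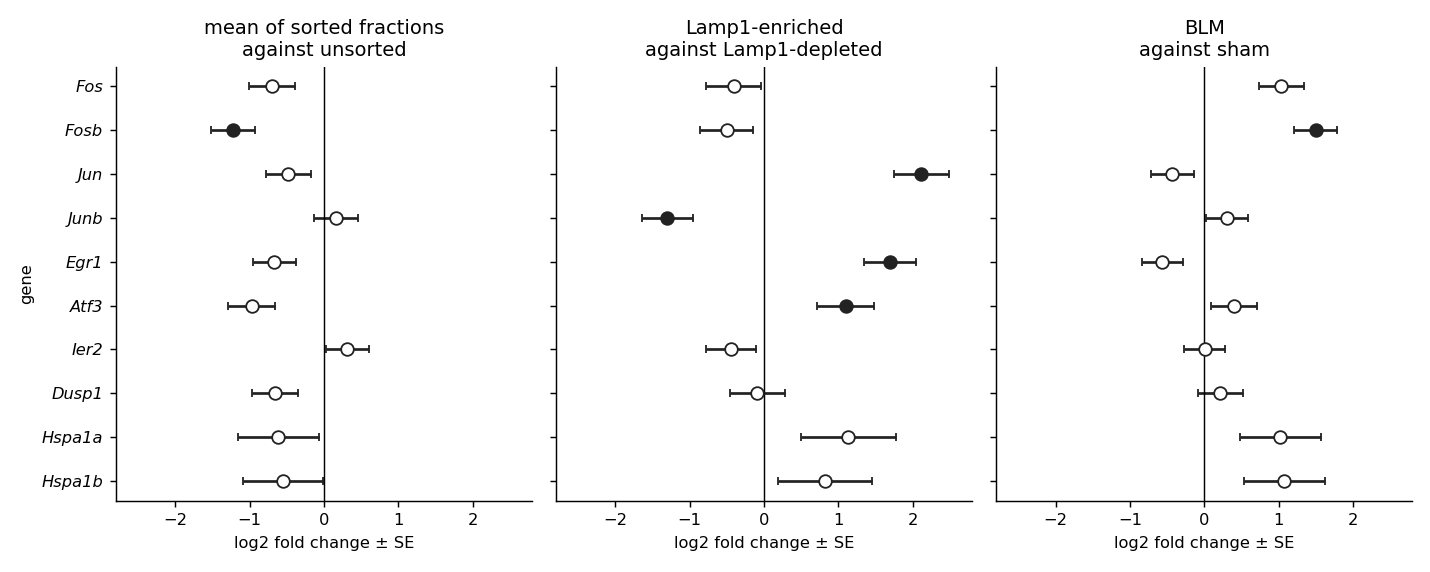
Log2 fold change with its SE, derived from the F statistic, for the 10 members in 3 contrasts of 1 edgeR quasi-likelihood fit over the 6 libraries: mean of the sorted fractions against unsorted cells, Lamp1-enriched against Lamp1-depleted cells and BLM against sham. Filled points passed an adjusted p of 0.05. Fosb was filled in the first and the last contrast, and Jun, Junb, Egr1 and Atf3 in the middle one.

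Treatment was compared within each kind of cell and then over all 3. In unsorted cells Fos was 2.82-fold and Fosb 4.03-fold higher in BLM than in sham mice, and no other member reached 2-fold, against 13.9% of genes higher and 16% lower. Jun and Egr1 stood at log2 ratios of -0.995 and -0.93 there, with Jun at the edge of 2-fold. In Lamp1-depleted cells 5 members were at least 2-fold higher in BLM mice (Fos, Fosb, Atf3, Hspa1a and Hspa1b), against 13.7% of genes higher and 22.3% lower. The ratio was 7.66-fold for Hspa1a and 7.85-fold for Hspa1b. With total counts as the scale, on which Gm26917 weighs most, only these 2 passed there, at log2 ratios of 2.22 and 2.25 in place of 2.94 and 2.97. In Lamp1-enriched cells no member reached 2-fold, against 10.2% of genes higher and 7.86% lower. In the edgeR fit Fosb rose by 1.5 ± 0.30 on the log2 scale in BLM against sham (adjusted p = 0.0170) and was the only member called, against 2.85% of genes higher and 1.73% lower. The call was lost with total counts as the scale (adjusted p = 0.137). Fos was at 1.04 ± 0.30 with an adjusted p of 0.0874, and DESeq2 called it with 0.0071. Hspa1a and Hspa1b were at 1.02 ± 0.55 and 1.08 ± 0.54, with edgeR adjusted p of 0.334 and 0.309. These became 0.000256 and 0.000299 without the sham unsorted library and 0.000314 and 0.000348 without the BLM unsorted library. Without the sham Lamp1-depleted library the log2 fold changes were 0.099 and 0.15 (edgeR adjusted p = 0.901 and 0.836), and without the BLM Lamp1-depleted library 0.098 and 0.15 (0.900 and 0.835).

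Cell types differed between the libraries along with the members. In bulk samples fewer cells of a type and less RNA per cell cannot be told apart. The 12 endothelial markers summed to 13023 and 13144 CPM in Lamp1-enriched cells of sham and BLM mice, 7407 and 4647 CPM in unsorted cells and 1645 and 1174 CPM in Lamp1-depleted cells, an order that Jun and Egr1 shared in each treatment. Platelet markers (9 genes) had that order too, at 1144 and 170 CPM, 347 and 62.3 CPM, and 48.3 and 15.4 CPM. Markers of B cells (8 genes), T cells (10 genes) and NK cells (7 genes) were ordered like Junb in each treatment: B cell markers summed to 3898 and 1886 CPM in Lamp1-depleted cells and to 91.3 to 343 CPM elsewhere, T cell markers to 854 and 552 CPM and to 32.7 to 102 CPM, and NK cell markers to 217 and 77.3 CPM and to 5.43 to 31.3 CPM. Markers of monocytes and interstitial macrophages (10 genes) summed to 18147 CPM in BLM unsorted cells and to 883 to 2688 CPM in the other 5 libraries, and those of alveolar macrophages (10 genes) to 3440 CPM and 234 to 712 CPM. The BLM unsorted library was thus the highest for macrophage markers, as it was for Fos, Fosb, Atf3 and Dusp1. For Atf3 the lead over sham unsorted cells was small (210 against 199 CPM). With total counts as the scale its log2 ratio of BLM over sham unsorted cells was -0.18. Neutrophil markers (8 genes) were highest in BLM Lamp1-depleted cells at 397 CPM, against 35.8 to 169 CPM elsewhere. Fibroblast markers (9 genes) ranged from 98.0 to 981 CPM and type 2 epithelial markers (9 genes) from 216 to 1500 CPM. Of these markers, Fabp1 was at 0 in both sorted BLM libraries, Ly6g in sham Lamp1-enriched cells and Treml1 in BLM Lamp1-depleted cells. Their part in the levels of the members was not tested.

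Other genes of the same responses were taken from lists. Of 45 other immediate early genes, 1 was higher and 3 were lower in sorted than in unsorted cells by the edgeR fit, against 0.288% of all genes higher and 3.45% lower. The lower ones were Egr2, a relative of Egr1 (-1.98 ± 0.29, adjusted p = 0.00773), the secreted matrix protein gene Cyr61 and the inflammatory factor Cebpb, and the higher one was the growth regulator Myc (1.15 ± 0.26, adjusted p = 0.0360). Egr2 was highest in BLM unsorted cells, at 97.1 CPM against 4.56 to 23.2 CPM elsewhere, and Myc was highest in the Lamp1-depleted cells, at 183 and 235 CPM against 12.7 to 33.3 CPM elsewhere. Sgk1, a kinase of the stress response, and Zfp36l1, which targets AU-rich messages, had log2 fold changes of -1.34 ± 0.34 and 0.93 ± 0.37 and did not pass. The median of the list was -0.19. Between the fractions, 12 of the 45 were higher and 20 lower in Lamp1-enriched cells, against 20.3% of genes higher and 18% lower. In BLM against sham 5 were higher (Cebpb, Nr4a3, Fosl2, Egr2 and Gadd45g) and none lower, against 2.85% of genes higher and 1.73% lower. At an unadjusted edgeR p under 0.05 there were 11, against 10.3% of genes higher and 9.06% lower.

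Of 28 other heat shock and chaperone genes none passed in sorted against unsorted cells in edgeR, and the median was -0.01. At an unadjusted edgeR p under 0.05 there were 4, against 16.1% of genes lower and 3.56% higher. The values at the ends were those of the small heat shock genes Hspb1 (-0.96 ± 0.29) and Cryab (-0.83 ± 0.32), and of the cochaperones Hsph1 (0.37 ± 0.30) and Dnajb1 (0.51 ± 0.33). Between the fractions 5 were higher in Lamp1-enriched cells (Hspb1, Hspb8, Cryab, Bag3 and Serpinh1, the collagen chaperone) and none lower, against 20.3% of genes higher and 18% lower. In BLM against sham Dnajb4 was lower, against 1.73% of genes lower and 2.85% higher. Dnajb1, which is induced by the same factor as Hspa1a, was at 85.3, 80 and 103 CPM in the sham libraries and at 65.4, 156 and 88.7 CPM in the BLM libraries. Its sham Lamp1-depleted library was thus near the other sham libraries, where that of Hspa1a was far below them. Of the 28 genes, 5 were at least 2-fold lower in sham Lamp1-depleted than in sham unsorted cells and 0 higher. The 5 were Hspb1, Hspb8, Cryab, Bag3 and Serpinh1. Over all genes 30.4% were that much lower and 18.3% that much higher. What sets Dnajb1 apart from these was not tested. None of 9 other dual-specificity phosphatases passed in sorted against unsorted cells. At an unadjusted edgeR p under 0.05 there were 4, against 16.1% of genes lower and 3.56% higher. Between the fractions 4 were higher in Lamp1-enriched cells (Dusp6, Dusp7, Dusp8 and Dusp14) and 4 lower (Dusp2, Dusp4, Dusp5 and Dusp10), against 20.3% of genes higher and 18% lower.

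Among 14 genes of the integrated stress and ER stress responses, the edgeR fit called the heme-degrading enzyme gene Hmox1 (-1.69 ± 0.38, adjusted p = 0.0379) and the lipoprotein receptor gene Vldlr (-1.22 ± 0.29, adjusted p = 0.0437) lower in sorted cells. None was higher, and over all genes 3.45% were lower and 0.288% higher. Hmox1 was at 209 CPM in BLM unsorted cells and at 8.49 to 38.4 CPM in the other 5 libraries, and it was also called higher in BLM against sham. Herpud1 and Ddit3, at 0.43 ± 0.25 and 0.60 ± 0.33, did not pass. Of 23 upstream regulators (the kinases and factors that act on the members) none passed in sorted against unsorted cells, with 1 at an unadjusted p under 0.05, and the ends were Mapk3 (-0.57 ± 0.25), Mkl2 (-0.29 ± 0.29), Elk4 (0.39 ± 0.27) and the heat shock factor Hsf1 (0.47 ± 0.29). Of 15 reference genes none passed, with 2 at an unadjusted edgeR p under 0.05, against 16.1% of genes lower and 3.56% higher. The medians were -0.20, 0.10 and 0.09 for these 3 lists and 0.00 for the phosphatases.

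In their structure most members are compact. The outer bounds of Atf3 and Dusp1 in GENCODE M21 span 47744 and 56539 bases, against a median of 17668.5 over protein-coding genes. Their RefSeq promoter windows lie inside these bounds, on the minus strand. The Dusp1 window runs from 26508473 to 26508722, within gene bounds of 26505590 to 26562128. That of Atf3 runs from 191183334 to 191183583, within 191170296 to 191218039. The span of each gene, and whether Dusp1 counts as under 5000 bases, therefore depends on the start that is taken. In GENCODE M21, on the GRCm38 build of the counts, 5 of the 10 (Jun, Junb, Ier2, Hspa1a and Hspa1b) have a single exon in their main transcript, against 6.36% of 21488 protein-coding genes, and 6 span less than 5000 bases, against 18.4%. The pentamer ATTTA, a mark of unstable messages, occurred at least once in the 3′ UTR of 8 members, against 62.8% of genes, and at least 3 times in 4 (Fos, Jun, Atf3 and Dusp1), against 34.2%. Ier2 and Hspa1a had none.

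The 5 genes whose profile over the 6 libraries was most like the mean profile of the members, by Pearson correlation of log2 CPM among 17925 genes with at least 50 reads in a library, were Slc40a1 (r = 0.999), Fam72a (0.998), Znhit1 (0.995), Myh8 (0.992) and Perm1 (0.990). All 5 were lowest in sham Lamp1-depleted cells and highest in BLM unsorted cells, as was the mean profile of the members, which stood at -1.01 and 0.48 on the centred log2 scale. Slc40a1, the iron exporter, ranged from 3.33 to 20.6 CPM. With 6 points, correlations of this size describe these libraries only.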

How the data were processed

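The authors deposited raw read counts per gene for 6 libraries (polyA RNA, paired reads of 150 bases). The submitters' processing notes name Trimmomatic 0.36, STAR 2.5.2b, featureCounts of Subread 1.5.2, DESeq2 and build GRCm38; strand and multi-mapping settings are not given in the sources used here. Samples were grouped by their titles, with 1 library per condition.

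TMM factors and the quasi-likelihood test came from edgeR 4.0.16 under R 4.3.3, with genes kept by filterByExpr, fraction and treatment as terms and Benjamini-Hochberg adjustment over all genes tested (called: under 0.05). Because each condition is 1 library, p-values measure how library effects vary between treatments, not between mice. The spread of a gene was moderated with 8.91 prior degrees of freedom taken from all genes. SE in the edgeR fit is the absolute log2 fold change divided by the square root of its F statistic. Ratios of 2 libraries used a prior count of 0.5 and genes that reached 10 reads in either library, with at least 2-fold as the call and no test. Python 3.11.15 was used for the rest. Of the gene identifiers, 49056 matched GENCODE M21 and 259 did not. The fit was tested on simulated counts with known changes in sorted cells. These held no treatment effect and no difference of fraction effects between treatments. They therefore do not show how the fit behaves under the spread of the real libraries.

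All 10 members are named, as are, per list, the 2 genes with the largest and the 2 with the smallest change in sorted cells, the 5 genes with the likest profile, and Gm26917 and Gm42418. Genes named in calls and cell type markers at 0 were picked with their values in view. The members and lists were chosen with earlier results of these data known. Alternatives were DESeq2 1.42.0, other scalings, filters, prior counts, thinned counts and each library left out.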

Additional observations from a re-analysis of the deposited data

Results flagged for a closer look

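Hspa1a and Hspa1b went in opposite directions in sham and BLM mice when a sorted fraction was set against unsorted cells, with counting intervals clear of 0 under TMM factors, DESeq2 size factors and totals outside Gm26917 and Gm42418. With total counts alone as the scale, Hspa1a in BLM Lamp1-depleted cells was at -0.20. With 1 library per condition the difference between treatments was not tested. In Lamp1-depleted cells the log2 ratio over unsorted cells was -3.11 in sham and 0.31 in BLM mice for Hspa1a, a difference of 3.41, and -2.86 and 0.51 for Hspa1b, a difference of 3.37. In Lamp1-enriched cells it was -0.42 and 0.70 for Hspa1a, a difference of 1.11, and -0.49 and 0.58 for Hspa1b, a difference of 1.07. The 2 genes share sequence, so this is 1 observation rather than 2. The sham Lamp1-depleted library held 839 Hspa1a and 1371 Hspa1b reads, the fewest of the 6 libraries. Ier2 in Lamp1-enriched cells was at 0.27 in sham and -0.086 in BLM mice under TMM factors, with counting intervals of 0.22 to 0.32 and -0.14 to -0.034, but its intervals were not clear of 0 under all 3 scalings. No other member had opposite signs with intervals clear of 0 under all 3. The share of all genes that meet this rule was not computed, so how unusual Hspa1a and Hspa1b are in this is not known. The intervals cover counting error only and are narrow at such read counts.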

How the results depend on the processing

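Levels rest on 1 library per condition, and intervals cover counting error only. The ratios over unsorted cells in sham Lamp1-depleted cells kept a negative member median and those for BLM over sham in Lamp1-depleted cells a positive one under every alternative; the sizes did not stay. With total counts as the scale the medians were -1.41 and -0.39 for sham Lamp1-depleted and Lamp1-enriched over unsorted cells, -1.30 and -0.27 for the BLM fractions, and -0.29 and 0.085 for BLM over sham in unsorted and Lamp1-depleted cells. The same scale put 1 member past 2-fold in sham Lamp1-enriched over unsorted cells, 4 in BLM over sham unsorted cells and 2 in BLM over sham Lamp1-depleted cells. With totals outside Gm26917 and Gm42418 the medians were -0.41 for sham Lamp1-enriched and -0.69 for BLM Lamp1-depleted over unsorted cells, and -0.20 and 0.76 for BLM over sham in unsorted and Lamp1-depleted cells, with 1, 2 and 4 members past 2-fold in the first 3. With DESeq2 size factors the medians were -0.65 for BLM Lamp1-depleted over unsorted cells, with 2 members past 2-fold, and 0.96 for BLM over sham Lamp1-depleted cells. Thinned to the smallest total these were -0.75 and 0.88. With Hspa1a and Hspa1b summed the medians were -0.77, -0.056, -0.85 and -0.57 for the 4 ratios over unsorted cells (sham Lamp1-depleted, sham Lamp1-enriched and the BLM fractions in the same order), and 0.081 and 0.50 for BLM over sham in unsorted and Lamp1-depleted cells. At a log2 ratio of 2 0 members passed in Lamp1-depleted and 1 in Lamp1-enriched over unsorted cells of BLM mice, and 1 and 2 for BLM over sham in unsorted and Lamp1-depleted cells. Prior counts and read filters moved none of these medians or counts beyond counting error. The median of all genes shifted most under total counts, by -0.50 for BLM Lamp1-depleted over unsorted cells and by -0.72 for BLM over sham Lamp1-depleted cells.

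In the edgeR fit of sorted against unsorted cells 2 members were called with all genes of at least 1 read and 0 without the treatment term, where 1 had an unadjusted p under 0.05. With total counts Junb was at -0.062 there, Dusp1 at 0.15 between the fractions, and Junb at -0.067, Ier2 at -0.36 and Dusp1 at -0.16 in BLM against sham, each against its sign in the report and none called. For BLM against sham the count was 0 with total counts (2 at an unadjusted p under 0.05), 2 with DESeq2 and 4 with all genes of at least 1 read, where Ier2 was at -0.043. Leaving out each library in turn gave 0 to 4 members called in sorted against unsorted cells and 1 to 3 in BLM against sham. In sorted against unsorted cells the log2 fold changes then ranged from -0.12 to 0.45 for Junb, -1.63 to 0.65 for Hspa1a and -1.55 to 0.69 for Hspa1b. Between the fractions they ranged from -0.93 to 0.10 for Fos, -1.03 to 0.010 for Fosb, -0.71 to 0.50 for Dusp1 and -0.28 to 2.57 for Hspa1b. In BLM against sham they ranged from -0.043 to 0.70 for Atf3, -0.29 to 0.24 for Ier2 and -0.069 to 0.60 for Dusp1. Over all genes the calls in sorted against unsorted cells were 818, against 1458 with total counts, 1468 with DESeq2, 2127 with all genes of at least 1 read, 0 without the treatment term and 420 to 1560 with a library left out. For BLM against sham they were 1005, against 1805 with DESeq2 and 2038 with all genes of at least 1 read, and between the fractions 8390, against 4828 at the lowest with a library left out. Leaving out a library left 1 residual degree of freedom, and BLM against sham could not be fitted without the treatment term. The cause was not tested. The treatment term ties the 3 libraries of a treatment together. The labels give no further pairing.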
